A study of Mus musculus with 2 samples.

Results

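At postnatal day 10 (P10), 178 of 14086 sorted lung cells carried RNA of the alveolar type 1 (AT1) programme by a fixed rule, out of 26113 cells kept in both libraries. Each of these cells held at least 5 unique molecular identifiers (UMIs, the count of single captured RNA molecules) summed over Hopx, Rtkn2, Akap5, Clic5 and Pdpn, with at least 3 of these 5 genes detected and no UMI of the leukocyte gene Ptprc. Cells had to have at least 500 genes, 1000 UMIs and at most 20% mitochondrial UMIs. The rule was met by 1.26% of P10 cells (exact binomial interval 1.09 to 1.46%), against 60.0% (59.1 to 60.8%) of cells kept from the embryonic library (E18.5). Measured values thus chose the cells, so the levels of the 5 genes are given below as a description only. The 178 cells were a mixture: 47 of them had a raised share of AT1 RNA and stayed below limits on markers of other lineages, and 22 of those 47 also had little surfactant protein C RNA.

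The study profiled single cells of mouse lung after labelling by Cdh16CreERT2, a tamoxifen-activated recombinase driven by the kidney-specific cadherin gene Cdh16, which turns on the red reporter tdTomato. The P10 group and the E18.5 group were 1 library each, both labelled as batch 1 and both sorted for tdTomato and CD326, the surface protein encoded by Epcam. Both carried the genotype Cdh16CreERT2;tdTomatoflox/flox in the sample labels, while the series text names the reporter allele as flox/wt, and tamoxifen was given from embryonic day 12.5, either by injection at 0.1 mg/kg or in the diet at 0.4 g per kg of food. Which route each library had, how many animals were pooled and their sex are not known from the labels, and the P10 library is labelled as embryonic lung like the E18.5 one. The label marks cells in which Cdh16 drove the recombinase after tamoxifen and their descendants, and the reporter transcript was not among the listed genes, so single cells could not be checked for it. The P10 reference was the 5858 P10 cells with Sftpc at 8% of UMIs or more and none of the 5 genes, called P10 AT2 cells here. The fetal reference was the 3987 E18.5 cells that met the same rule with Sftpc below 2% of UMIs, called E18.5 AT1 cells.

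AT1 cells are the large, flat cells that cover most of the alveolar surface and form the gas-exchange barrier together with the capillary endothelium and a shared basement membrane. Alveolar type 2 (AT2) cells are cuboidal, make and recycle surfactant in lamellar bodies, and can give rise to AT1 cells in the postnatal lung. In the fetal lung the AT1 programme comes on before birth and is driven in part by the transcription factor Nkx2-1 and by the YAP and TAZ co-activators with their TEAD partners.

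The P10 library held 14503 barcodes and 171205348 UMIs, and 14086 cells with a median of 10250.5 UMIs were kept. The E18.5 library held 12739 barcodes and 137837590 UMIs, and 12027 cells with a median of 8959 UMIs were kept. The libraries shared 59 barcodes, 52 of them among kept cells, and 1 of these belonged to the 178 cells. Cells are not replicates, and with 1 library per time point no difference has a replicate check, so no test was made. Intervals are 95% intervals that cover counting error only, and a gene was called higher or lower where its level differed by 2 times or more. Time point, library, animals and tissue handling cannot be told apart.

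The label of the cells was first checked against their other RNA. Levels are given as CPM, the UMIs of a gene divided by all UMIs of the summed cells and scaled to 1000000, and Sftpc as a share of each cell's UMIs. The 178 cells had a median of 20003 UMIs, against 10176 in P10 AT2 cells, and a median Sftpc of 11%, against 14.9%. Of the 178 cells, 23 had Sftpc below 2%, 28 had 2 to 8%, and 127 had 8% or more. Most of the cells met by the rule therefore carried surfactant RNA at a level found in AT2 cells.

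Cells with markers of another lineage were set apart first. There were 49 of them, or 27.5%, and they had at least 6 of 12 endothelial markers, at least 5 markers of a mesothelial, fibroblast, pericyte, ciliated, myeloid or lymphoid list, or Scgb1a1 at 5% of UMIs or more. Endothelial markers set apart 38 of them, fibroblast markers 16, pericyte and smooth muscle markers 6, myeloid markers 6, mesothelial markers 4, Scgb1a1 4 and ciliated markers 2, with some cells counted more than once. These other-lineage cells had a median of 27827 UMIs and reached 116534 UMIs, the deepest of the 178 cells. Their Sftpc had a median of 7.07%. Cells below these limits could still hold such RNA, as counted for the AT1-rich classes next.

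The remaining cells were split by the share of UMIs in the 5 rule genes, at 0.1%, and by Sftpc, at 8%. The 22 cells with a rule-gene share of at least 0.1% and Sftpc below 8%, 12.4% of the 178, are called AT1-rich, low-Sftpc cells. The 25 cells with the same rule-gene share and Sftpc of 8% or more, 14%, are called AT1-rich, high-Sftpc cells. The other 82 cells, 46.1%, had a rule-gene share below 0.1% and are called AT1-poor cells. All of these 82 cells had Sftpc above 8%, with a lowest value of 8.11% and a median of 13.3%. Of 12 genes that define other cell types, such as Cdh5 and Col1a1, no UMI was found in 12 of the 22 AT1-rich, low-Sftpc cells and 4 of the 25 AT1-rich, high-Sftpc cells, so the others held at least 1.

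The 4 classes differed in RNA that the split did not use. The share of UMIs in 34 further AT1 genes ran over the AT1-rich, low-Sftpc cells from 2.21 to 7.19% with a median of 4.09%. It ran over the AT1-rich, high-Sftpc cells from 0.771 to 4.09% with a median of 1.45%. It ran over the AT1-poor cells from 0.316 to 1.90% with a median of 0.545%, and over the other-lineage cells it had a median of 0.524%. The median was 0.372% in P10 AT2 cells and 3.33% in E18.5 AT1 cells. No AT1-rich, low-Sftpc cell overlapped the AT1-poor cells, and the AT1-rich, low-Sftpc median lay above that of fetal AT1 cells. The AT1-poor median lay above the upper quartile of P10 AT2 cells, 0.473%, and below the lowest AT1-rich, high-Sftpc cell. Leukocytes, which should lack these genes and were taken as cells with at least 2 Ptprc UMIs, had a median of 0.229% at P10 and 1.46% at E18.5. AT1 RNA in cells of another type was thus scarce at P10 and plentiful at E18.5. Hopx, for example, stood at 51.0 CPM in P10 leukocytes with Sftpc below 4% and at 1922 CPM in all E18.5 leukocytes.

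**Figure D1:**
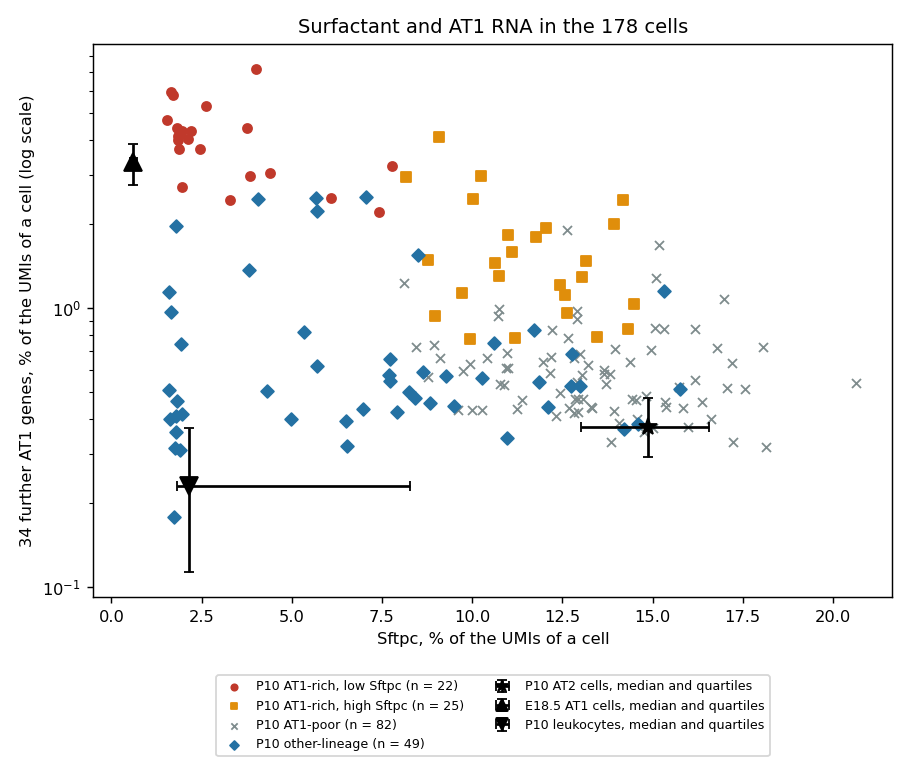
Each point is 1 of the 178 P10 cells, with the share of its UMIs in Sftpc across (percent) and in 34 further AT1 genes up (percent, log scale), coloured by class; black symbols are medians with quartiles of P10 AT2 cells, E18.5 AT1 cells and P10 leukocytes. The 22 AT1-rich, low-Sftpc cells sit between 2.21 and 7.19% in height at the level of E18.5 AT1 cells. The AT1-poor cells have a median height of 0.545%, against 0.372% in P10 AT2 cells.

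Depth moved with the classes. The AT1-rich, low-Sftpc cells were shallow, with 1065 to 19785 UMIs and a median of 5149.5, close to the 5459 of E18.5 AT1 cells. The medians were 16180 UMIs in AT1-rich, high-Sftpc cells and 20821 in AT1-poor cells. Of the AT1-poor cells 63 of 82 had just 3 of the 5 genes, while 18 of 22 AT1-rich, low-Sftpc cells and 20 of 25 AT1-rich, high-Sftpc cells had all 5. When every cell was thinned to 3000 UMIs, 45 of 173 cells of sufficient depth still met the rule (26%, 19.6 to 33.2%). Leukocytes, which were not chosen by the 5 genes, met the limits on them at this depth in 2 of 1258 cells at P10 (0.159%) and in 57.9% of cells at E18.5, at median full depths of 7386 and 14118.5 UMIs. The share of E18.5 cells that met the rule is therefore read here with that background and not as a share of AT1 cells.

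Around the threshold the cells were much alike, which is given here without a test. The 33 cells just inside, with 5 UMIs of the rule genes, had a median Sftpc of 13.7% and further AT1 genes at 0.470%, and none was AT1-rich. The 73 cells just outside, with 4 UMIs in at least 3 genes, had a median Sftpc of 14% and further AT1 genes at 0.484%, and 2 of them reached a rule-gene share of 0.1% below the other-lineage limits. A further 86 P10 cells met the rule but for a Ptprc UMI, with a median of 34672.5 UMIs, and 56 of them reached the other-lineage limits.

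**Figure D2:**
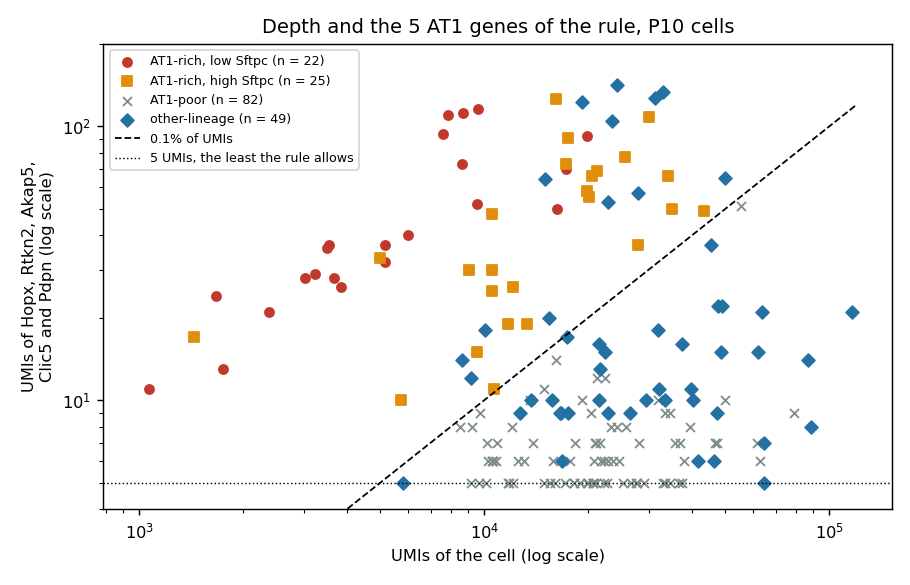
Each point is 1 of the 178 P10 cells, with its UMIs across and its UMIs of the 5 rule genes up (both log scales), coloured by class; the dashed line marks a share of 0.1% and the dotted line the 5 UMIs the rule asks for. AT1-poor cells have 5 to 51 rule-gene UMIs with a median of 6 at a median depth of 20821 UMIs, and AT1-rich, low-Sftpc cells reach 11 to 116 rule-gene UMIs at a median depth of 5149.5.

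UMIs of Xist and of Y-linked genes in 1 cell were counted as a mark of RNA from animals of both sexes. They occurred in 9.09% of AT1-rich, low-Sftpc cells (1.12 to 29.2%), 40.0% of AT1-rich, high-Sftpc cells (21.1 to 61.3%), 43.9% of AT1-poor cells and 42.9% of other-lineage cells, against 18.4% of P10 AT2 cells. After thinning the share was 5.56% of AT1-rich, low-Sftpc, 4.17% of AT1-rich, high-Sftpc, 6.10% of AT1-poor and 4.08% of other-lineage cells, against 2.96% of P10 AT2 cells, and the intervals of the 4 classes overlapped. The thinned share was 4.60% in P10 leukocytes with Sftpc below 4%. The part of doublets in the classes was not tested.

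The 5 genes that chose the cells were far apart in level between the classes. Hopx, a homeodomain cofactor found in AT1 cells, stood at 2132 CPM in AT1-rich, low-Sftpc cells, 807 CPM in AT1-rich, high-Sftpc cells and 88.8 CPM in AT1-poor cells, against 4872 CPM in E18.5 AT1 cells, taken here without the 491 that reached the other-lineage limits. Rtkn2 stood at 2179, 796 and 33.4 CPM in these P10 classes, against 999.6 CPM in E18.5 AT1 cells. Akap5, an anchor for protein kinase A, stood at 912, 385 and 74.95 CPM, against 907 CPM in E18.5 AT1 cells. Clic5, a chloride intracellular channel protein tied to the cell cortex, stood at 1904, 618 and 95.5 CPM, against 1458 CPM. Pdpn, the membrane glycoprotein podoplanin used as an AT1 surface marker, stood at 456, 148 and 9.75 CPM, against 285 CPM. In the AT1-poor cells each of the 5 was within a range of 9.75 to 95.5 CPM, and in P10 leukocytes with Sftpc below 4% within 7.06 to 51.0 CPM.

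Each rule gene was also read in P10 cells chosen by the other 4, with at least 4 UMIs in at least 2 of them, which does not use its own counts. Among the 45 such cells with a share of at least 0.1% and below the other-lineage limits, Hopx was detected in 97.8% and stood at 1240 CPM (1147 to 1338), against 15.9 CPM in P10 cells with Sftpc of at least 8% and none of the other 4. Rtkn2 stood at 1236 CPM, against 4.08 CPM. Akap5 stood at 512 CPM, against 11.7 CPM, and Clic5 at 1037 CPM, against 23.1 CPM. Pdpn stood at 225 CPM, against 2.70 CPM. These sets held 46 cells for Rtkn2, 49 for Akap5, 45 for Clic5 and 48 for Pdpn. Without the limits on share and other lineages the levels were lower, with Hopx at 244 CPM in 218 cells and Rtkn2 at 93.8 CPM in 478. Akap5 then stood at 65.4 CPM in 404 cells, Clic5 at 277 CPM in 188 and Pdpn at 21.0 CPM in 479. Every gene was thus higher in cells picked without it, but by less where these limits were not set. E18.5 cells were chosen with the same limits on share and other lineages, and no limit on Sftpc. Their levels were 3544 CPM for Hopx, 515 CPM for Rtkn2, 505 CPM for Akap5, 885 CPM for Clic5 and 169 CPM for Pdpn. Over the 178 cells the share of the rule genes and that of the 34 further AT1 genes had Pearson's r of 0.94 and Spearman's rho of 0.72 (n = 178 cells, all of 1 library and differing in depth, so a description only).

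The AT1-rich, low-Sftpc cells were set against P10 AT2 cells across all other genes. AT1 genes were higher throughout: 34 of 34 further AT1 genes had a ratio of 2 or more, against 20.1% of the 6193 genes measured. The median log2 ratio was 3.64 for these AT1 genes and 0.25 for all genes. A gene counted as measured if its CPM in the 2 sums averaged 20 or more, which it can reach through 1 group alone, and all 34 list members reached it. Ager, the receptor for advanced glycation end products and one of the most abundant AT1 transcripts (mm10 chromosome 17, 34597862 to 34600936, plus strand), stood at 7903 CPM, against 650 CPM in AT2 cells, 12.2 times higher (11.5 to 12.9). It was found in every one of the 22 cells, with 4 to 161 UMIs and a median of 37.5. In cells thinned to 3000 UMIs it was found in 100% of AT1-rich, low-Sftpc cells and 81.9% of AT2 cells, against 36.1% of P10 leukocytes with Sftpc below 4%, at median full depths of 5149.5, 10176 and 4572 UMIs. Detection of Ager therefore separated these groups far less than its level did.

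Caveolae, the plasma membrane pits that are dense in AT1 cells and endothelium, were represented by 10 genes. All 10 were higher, with a median log2 ratio of 3.98, where 20.1% of all measured genes were higher. Cav1, which encodes the caveolin coat protein (chromosome 6, 17306335 to 17341452, plus strand), stood at 965 CPM, against 7.06 CPM in AT2 cells, 137 times higher (113 to 165). After thinning it was found in 88.9% of AT1-rich, low-Sftpc cells, 62.5% of AT1-rich, high-Sftpc cells and 4.88% of AT1-poor cells, against 2.40% of AT2 cells and 4.47% of P10 leukocytes with Sftpc below 4%. The AT1-poor share was thus at the leukocyte level. Cavin2, a cavin that shapes the coat, stood at 959 CPM, against 9.48 CPM, and Emp2, an epithelial membrane protein linked to caveolin, at 1877 CPM, against 166 CPM.

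Cav1 and Cavin2 are also endothelial genes, so endothelial RNA in the same cells was read. Cells that reached the other-lineage limits on endothelial, fibroblast or mesothelial markers had been left out of both AT1-rich classes. Low sums of these markers there thus follow in part from that choice. P10 AT2 cells and leukocytes had no such limits. The 12 endothelial markers summed to 127 CPM in AT1-rich, low-Sftpc cells and 100 CPM in AT1-rich, high-Sftpc cells, against 97.2 CPM in P10 AT2 cells. The other-lineage class had 2413 CPM, P10 leukocytes with Sftpc below 4% had 580 CPM and all P10 leukocytes had 318 CPM. Kdr, Tie1, Plvap, Car4 and Emcn, 5 of the 12, were at 0 UMIs in the AT1-rich, low-Sftpc cells, and Cdh5, the endothelial cadherin, had 2 UMIs. Epcam, the gene of the sorted surface protein, stood at 208 CPM, against 194 CPM, and Cdh16, whose promoter drove the recombinase, had 1 UMI in the 22 cells and stood at 0.793 CPM in AT2 cells. The fibroblast markers summed to 53.6 CPM, against 85.2 CPM in AT2 cells, and of the 8 mesothelial markers Msln alone had UMIs.

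Genes of the alveolar basement membrane and its receptors were higher as well. Of 24 genes in the matrix list 20 were measured, and 18 were higher and 1 lower, with a median log2 ratio of 2.81. Among all measured genes 20.1% were higher and 10.1% lower. Col4a3 and Col4a4, which encode 2 chains of the type IV collagen network of thin barriers and lie next to each other on chromosome 1, stood at 1763 CPM and 2346 CPM, against 144 CPM and 145 CPM in AT2 cells. Col4a5, their X-linked partner chain, stood at 469 CPM, against 41.4 CPM. Lama3, a laminin chain, stood at 322 CPM, against 18 CPM, and Itgb6, the integrin subunit that activates latent TGF-beta, at 235 CPM, against 11 CPM. Spock2, a secreted proteoglycan, stood at 315 CPM, against 2.96 CPM, 107 times higher (75.7 to 147). The 1 lower gene was Itga6, at 33.5 CPM or 5 UMIs, against 77.4 CPM, a ratio of 0.433 (0.141 to 1.01). Laminin, collagen and integrin transcripts of the list thus went mostly one way.

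Of the 14 listed signals that AT1 cells send to neighbouring cells 8 were measured, and 8 of 8 were higher, with a median log2 ratio of 4.60. Among all measured genes 20.1% were higher. Sema3a, Sema3e, Pdgfb and Wnt3a averaged 20 CPM only through the AT1-rich, low-Sftpc cells, so their direction was set by that filter. Of the 14 genes 3 were at 0 UMIs in these cells. Sema3a, a secreted guidance cue, stood at 650 CPM, against 2.36 CPM, 275 times higher (211 to 357). Sema3e, a further semaphorin that acts on endothelium through plexin D1, stood at 858 CPM, against 9.13 CPM, and 47.3 CPM in P10 leukocytes with Sftpc below 4%. Vegfa, the endothelial growth factor, stood at 965 CPM, against 53.8 CPM. Pdgfa, a growth factor for alveolar fibroblasts, stood at 449 CPM, against 49.8 CPM, and Pdgfb, a growth factor for pericytes, at 154 CPM, against 4.68 CPM. Wnt3a had 8 UMIs or 53.6 CPM, against 0.396 CPM.

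Transport genes split by gene. The 3 subunits of the epithelial sodium channel were higher: Scnn1a at 778 CPM, against 210 CPM, Scnn1b at 194 CPM, against 5.92 CPM, and Scnn1g at 275 CPM, against 3.0 CPM. Aqp5, the apical water channel, stood at 1542 CPM, against 239 CPM, 6.46 times higher (5.65 to 7.36). Cftr, the chloride channel, was lower at 53.6 CPM or 8 UMIs, against 202 CPM, and Slc26a9, an anion transporter, at 13.4 CPM or 2 UMIs, against 82.3 CPM, a ratio of 0.163 (0.0197 to 0.589). Of the 11 measured genes of the list 5 were higher and 3 lower, the third lower one being the sodium pump subunit Atp1b3. Among all measured genes 20.1% were higher and 10.1% lower. Sodium channel subunits and chloride transporters thus went opposite ways.

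Of the YAP and TEAD list 7 of 10 measured genes were higher and none lower. Tead1, a DNA-binding partner of YAP, stood at 858 CPM, against 112 CPM, and Ccn2, a target of the pathway, at 93.8 CPM, against 3.22 CPM. Yap1 itself stood at 87.1 CPM, against 84.0 CPM, and Wwtr1, which encodes TAZ, at 295 CPM, against 252 CPM, ratios of 1.04 (0.552 to 1.77) and 1.17 (0.850 to 1.57). The lung transcription factor Nkx2-1 stood at 302 CPM, against 232 CPM, a ratio of 1.30 (0.947 to 1.74). Of 17 measured lung transcription factors 4 were lower and none higher, where 10.1% of all measured genes were lower, the lower ones being Etv5, Cebpa, Elf5 and Elf3. Etv5, a factor of FGF signalling in AT2 cells, stood at 67.0 CPM, against 282 CPM, and Cebpa at 20.1 CPM or 3 UMIs, against 145 CPM, a ratio of 0.139 (0.0286 to 0.406). Claudins and junction genes were higher in 4 of 11 and lower in none, where 20.1% of all measured genes were higher, led by Cldn18, the claudin of the lung alveolus, at 1750 CPM, against 342 CPM. Cytoskeletal genes were higher in 9 of 19, among them Msn, the membrane linker moesin, at 972 CPM, against 142 CPM.

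Surfactant and AT2 genes were lower, which in part follows from the Sftpc limits that chose both groups. Of the surfactant and lamellar body list without Sftpc, 7 of 9 measured genes were at least 2 times lower, against 10.1% of all genes measured, and the median log2 ratio was -1.34. Sftpb, a hydrophobic surfactant protein, stood at 1904 CPM, against 6994 CPM in AT2 cells. Lamp3, a lamellar body membrane protein, stood at 261 CPM, against 913 CPM. Slc34a2, the AT2 phosphate transporter, stood at 543 CPM, against 2336 CPM. Ctsh, a protease that processes surfactant proteins, was among the measured genes not called lower, at 1897 CPM, against 1829 CPM. Of the further AT2 genes 21 of 26 were lower, with a median of -1.64. Summed with Sftpc, the surfactant list stood at 52669 CPM in AT1-rich, low-Sftpc cells, against 183120 CPM in P10 AT2 cells and 26425 CPM in P10 leukocytes with Sftpc below 4%. Of the 22 cells, 3 with Sftpc of 6.09 to 7.78%, the deepest of the class, held 62.6% of its Sftpc UMIs and 35.7% of all its UMIs. The other 19 cells stood at 32705 CPM for the list, nearer to the leukocytes, and the median log2 ratio of the surfactant genes without Sftpc was -1.75 for them. The median share of Sftpc was 2.16% over the 22 cells, against 14.9% in P10 AT2 cells and 1.92% in P10 leukocytes with Sftpc below 4%.

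The largest ratios outside the rule genes were seen in genes nearly silent in AT2 cells. Rasgrf2, which encodes an exchange factor for Ras proteins, stood at 221 CPM, against 0.351 CPM, 631 times higher (359 to 1125). Igfbp2, which encodes a binding protein for insulin-like growth factors, stood at 168 CPM, against 0.579 CPM, 289 times higher (167 to 492). Scel, which encodes the cell-envelope protein sciellin, stood at 101 CPM, against 0.427 CPM, and Cdh13, which encodes a cadherin without a cytoplasmic part, at 302 CPM, against 1.71 CPM. Fbln5, an elastic fibre protein, stood at 396 CPM, against 3.83 CPM, and Sphk1, a sphingosine kinase, at 107 CPM, against 1.20 CPM. Akr1c14, Plscr2, Cttnbp2, Sema3a, Sema3e, Cav1, Cavin2, Spock2 and Scnn1g made up the rest of the 15 genes with the largest ratios. Among the genes with the lowest ratios were Bmp1, a metalloproteinase that trims procollagens, with 2 UMIs or 13.4 CPM, against 185 CPM, a ratio of 0.0723 (0.00876 to 0.261), and Acoxl, a peroxisomal acyl-CoA oxidase-like gene, at 101 CPM, against 783 CPM. Ehf, an epithelial ETS factor, had 0 UMIs, against 121 CPM, at least 6.00-fold lower against a floor of 3 UMIs over the 22 cells. Of the 1242 higher genes 827, or 66.6%, stood at least 2 times above their level in P10 leukocytes with Sftpc below 4%.

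**Figure D3:**
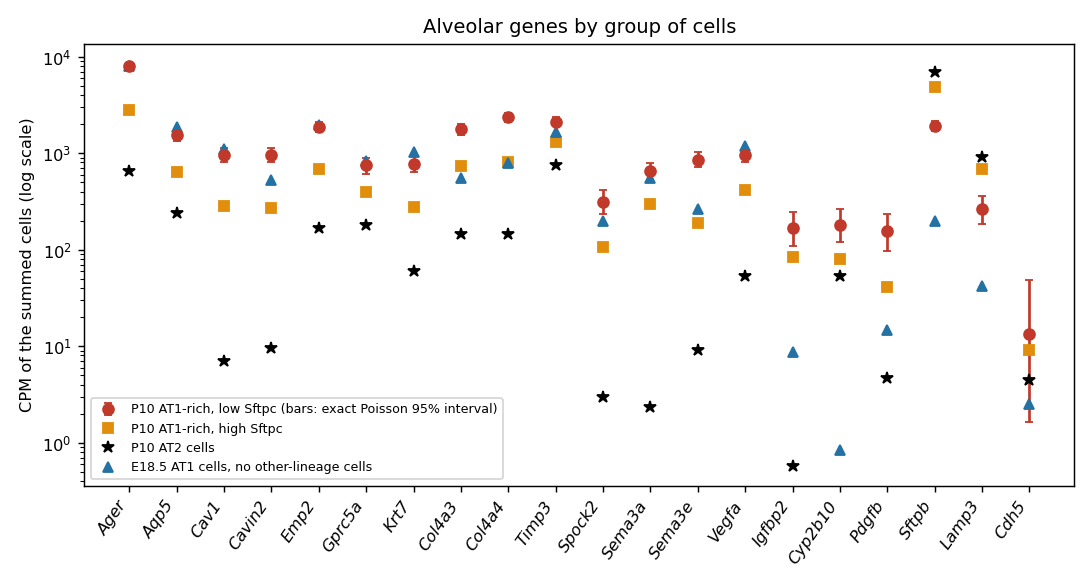
Level of 20 genes in CPM (log scale) in AT1-rich, low-Sftpc cells of P10 with exact Poisson intervals, AT1-rich, high-Sftpc cells of P10, P10 AT2 cells and E18.5 AT1 cells without other-lineage cells. Cav1 stands at 965 CPM in AT1-rich, low-Sftpc cells and 7.06 CPM in P10 AT2 cells, and Igfbp2, Cyp2b10 and Pdgfb stand above both references.

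The 25 AT1-rich, high-Sftpc cells lay between the AT1-rich, low-Sftpc cells and AT2 cells in summed AT1 genes, at 14957 CPM, against 37667 CPM in AT1-rich, low-Sftpc cells and 3946 CPM in AT2 cells. Against the AT1-rich, low-Sftpc cells 26 of 34 further AT1 genes were at least 2 times lower and none higher, with a median log2 ratio of -1.45, where 15.6% of 6278 measured genes were lower and the median of all was -0.18. Ager stood at 2802 CPM, against 7903 CPM in AT1-rich, low-Sftpc cells, Cav1 at 280 CPM, against 965 CPM, and Sema3e at 187 CPM, against 858 CPM. Of 9 measured surfactant genes 6 were higher, where 9.43% of all genes were, and 18 of 26 AT2 genes were higher. Sftpb stood at 4827 CPM, against 1904 CPM, and Lamp3 at 684 CPM, against 261 CPM. Relative to P10 AT2 cells, with Sftpb at 6994 CPM and Lamp3 at 913 CPM, these cells were lower by less. Timp3, a metalloproteinase inhibitor bound to matrix, stood at 1318 CPM, against 2118 CPM, a ratio of 0.622 (0.541 to 0.716). Saa3, an acute-phase gene, stood at 331 CPM, against 40.2 CPM in AT1-rich, low-Sftpc cells and 136 CPM in AT2 cells.

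Both classes together showed an inverse relation of AT1 and surfactant RNA. Over the 47 AT1-rich cells the share of further AT1 genes and that of Sftpc had r of -0.81 and rho of -0.81, and UMIs and Sftpc had r of 0.62 and rho of 0.61. Within the 22 low-Sftpc cells the first pair had r of -0.45 and rho of -0.53, and within the 25 high-Sftpc cells r of -0.35 and rho of -0.26. These cells share 1 library, the 2 classes were cut on Sftpc, and shares of 1 total are not independent. Depth moved with Sftpc here, and the part of depth and of doublets between AT1 and AT2 cells was not tested.

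The 82 AT1-poor and 49 other-lineage cells held most of the UMIs of the 178 cells, 1947922 and 1676137 of 4211814. Across all 178 cells 303 of 6050 genes, or 5.01%, were at least 2 times higher than in P10 AT2 cells and 5, or 0.0826%, lower. Of the further AT1 genes 30 of 34 were measured and 20 were higher, with a median log2 ratio of 1.25, against 0.09 for all genes. Endothelial markers were higher in 8 of 8 measured. They lay in the other-lineage class, which was defined in part by these same markers, Cdh5 among them, so the contrast between classes follows in part from that choice. Cdh5 stood at 124 CPM over the 178 cells, against 4.41 CPM in AT2 cells, and at 302 CPM in the other-lineage class alone. In thinned cells Cdh5 was found in 51.0% of other-lineage cells (36.3 to 65.6%), in 0 of 82 AT1-poor cells, with an upper limit of 4.40%, and in 1.32% of AT2 cells. Igfbp5, Calcrl, Scn7a, Cyyr1, Cd93, Dach1, Ldb2, Tmem100, Ptprb, Hpgd and Pde3a, which made up most of the 15 largest ratios of this comparison, were all at 40.2 CPM or less in AT1-rich, low-Sftpc cells and at 239 to 637 CPM in the other-lineage class. Without the other-lineage cells 90 genes were at least 2 times higher in place of 303. Igfbp5, Cyyr1, Cd93, Dach1, Ldb2 and Ptprb then had log2 ratios between -1.01 and -0.067. Of these Cd93 alone was lower by 2 times or more. Saa3, S100a8 and S100a9 led the genes that were lower over the 178 cells.

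**Figure D4:**
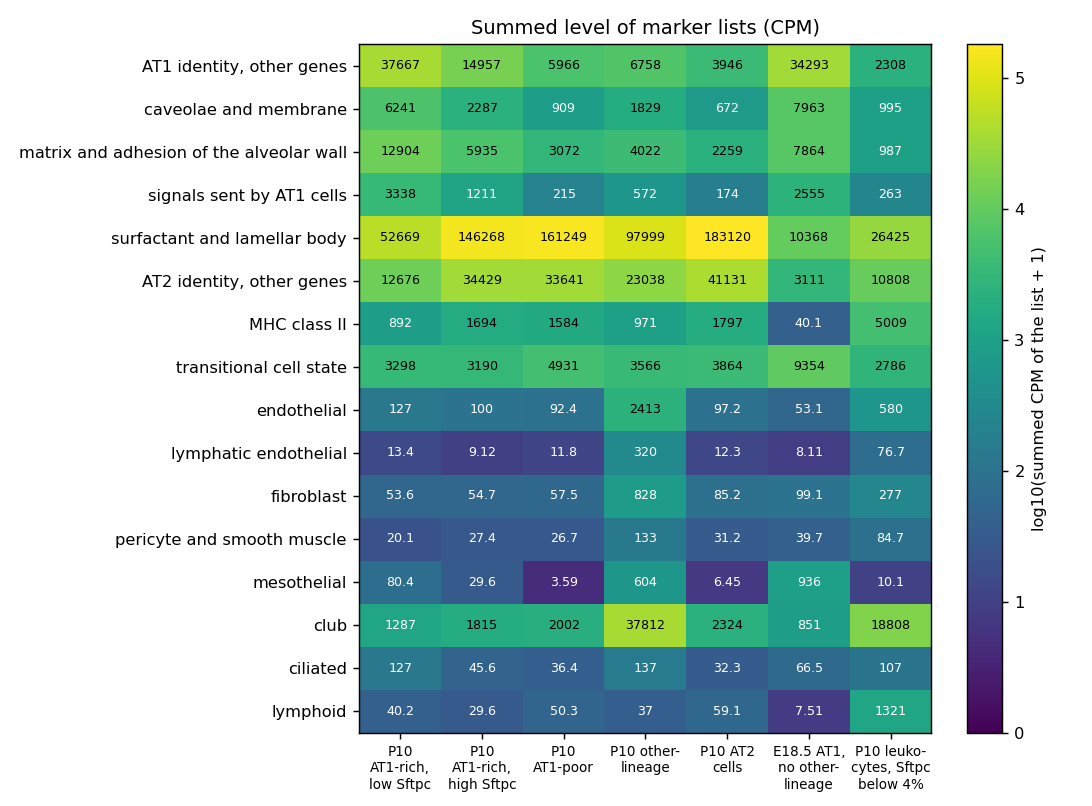
Summed level in CPM of 16 marker lists (rows) in the 4 classes of P10 cells, P10 AT2 cells, E18.5 AT1 cells without other-lineage cells and P10 leukocytes with Sftpc below 4% (columns), coloured on a log10 scale. The further AT1 genes sum to 37667 CPM in AT1-rich, low-Sftpc cells and 34293 CPM in E18.5 AT1 cells. Among the 4 classes the endothelial markers reach 2413 CPM in the other-lineage class alone, which they helped to define.

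The AT1-rich, low-Sftpc cells of P10 were then set against fetal AT1 cells. For this the 491 E18.5 cells with other-lineage markers by the same limits were left out, which left 3496 cells with a median of 5118 UMIs. Most AT1 genes differed by less than 2 times. Of 34 further AT1 genes, all measured, 9 were higher at P10, 1 was lower and 24 were neither, with a median log2 ratio of 0.21, where 16.8% of 6222 measured genes were higher, 11.8% lower and the median of all was 0.16. Ager stood at 7903 CPM, against 7963 CPM in E18.5 AT1 cells, a ratio of 0.992 (0.936 to 1.05). Emp2 stood at 1877 CPM, against 1957 CPM, Cav1 at 965 CPM, against 1093 CPM, and Aqp5 at 1542 CPM, against 1878 CPM. Vegfa stood at 965 CPM, against 1183 CPM, and Nkx2-1 at 302 CPM, against 308 CPM. Caveolae genes were lower in 1 of 10, the tetraspanin Cd9, and junction genes in 2 of 12.

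The 9 AT1 genes that were higher at P10 were Igfbp2, Cyp2b10, Sema3e, Col4a3, Col4a4, Phactr1, Sec14l3, Gramd2 and Fstl3. Igfbp2 (chromosome 1, 72824503 to 72852474, plus strand) stood at 168 CPM, or 25 UMIs, against 8.71 CPM in E18.5 AT1 cells, 19.2 times higher (12.1 to 29.3). It was found in 45.5% of the 22 cells with 0 to 7 UMIs in a cell, against 4.00% of E18.5 AT1 cells, and after thinning in 27.8% (9.69 to 53.5%), against 2.34%. In P10 leukocytes with Sftpc below 4% it was found in 0.255% of thinned cells, and in P10 AT2 cells in 0.139%. Igfbp2 was thus low in both references and in leukocytes of either library, at 1.20 CPM in those of P10 with Sftpc below 4% and 6.70 CPM in those of E18.5 with Sftpc below 1%. Cyp2b10, a cytochrome P450 inducible by foreign compounds in mouse liver, stood at 181 CPM or 27 UMIs, against 0.830 CPM, 218 times higher (116 to 421). Unlike Igfbp2 it was also present in AT1-poor cells at 93.4 CPM and in P10 AT2 cells at 52.7 CPM. Col4a3 stood at 1763 CPM, against 550 CPM, 3.21 times higher (2.83 to 3.63), and Col4a4 at 2346 CPM, against 782 CPM, 3.0 times higher (2.69 to 3.34). Sema3e stood at 858 CPM, against 262 CPM, 3.27 times higher (2.72 to 3.90), and Sec14l3, a lipid-binding protein, at 818 CPM, against 313 CPM. Fstl3 had 10 UMIs, 67.0 CPM against 32.4 CPM, with an interval from 0.989 to 3.83.

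The sequences before the start sites of Cyp2b10 and Igfbp2 are shown because these 2 AT1 genes had the largest ratios between the P10 and fetal cells. Each is the 250 bases upstream of a start site in RefSeq (GRCm38.p6), chr7:25897408-25897657 and chr1:72824230-72824479, both on the plus strand, in lower case with the TEAD core motif GGAATG in capitals where it occurs.
Cyp2b10: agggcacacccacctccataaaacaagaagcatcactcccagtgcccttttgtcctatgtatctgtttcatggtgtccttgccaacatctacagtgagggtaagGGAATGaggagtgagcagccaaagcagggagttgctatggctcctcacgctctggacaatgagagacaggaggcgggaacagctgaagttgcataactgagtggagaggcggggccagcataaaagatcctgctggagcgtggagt
Igfbp2: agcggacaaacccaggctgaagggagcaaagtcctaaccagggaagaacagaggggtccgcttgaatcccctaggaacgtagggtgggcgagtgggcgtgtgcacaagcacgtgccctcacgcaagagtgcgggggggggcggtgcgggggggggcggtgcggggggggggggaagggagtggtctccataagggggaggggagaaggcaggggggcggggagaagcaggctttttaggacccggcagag
The TEAD core was searched as GGAATG or CATTCC and the core of NK2 homeodomain factors such as Nkx2-1 as TNAAGTG or CACTTNA, on both strands. Start sites were listed for 32 of the 39 AT1 genes (the 5 rule genes and the 34 others), with 45 promoters in all. The TEAD core occurred in 3 of these 45 promoters, or 6.67%, of Ahnak, Cyp2b10 and Phactr1, against 4153 of all 32851 promoters, or 12.6%. The NK2 core occurred in 1 of 45, or 2.22%, of Sec14l3, against 10.1% of all. A match is a match of letters, and no match says only that these letters are not in this window.

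Other lists held genes that differed between the P10 and fetal cells. In the matrix list 4 of 21 measured genes were higher, Col4a2, Col4a3, Col4a4 and the laminin chain Lamb3, and 2 lower, Lamc1 and Fras1, counts near the 16.8% higher and 11.8% lower of all measured genes. In the list of signals 3 of 10 were higher and 2 lower. Pdgfb stood at 154 CPM or 23 UMIs, against 14.7 CPM, 10.5 times higher (6.57 to 16.1), and 11 CPM in P10 leukocytes with Sftpc below 4%. The hedgehog ligand Shh had 3 UMIs or 20.1 CPM, against 65.2 CPM, a ratio of 0.309 (0.0636 to 0.904). Among the YAP and TEAD genes Tead1 was higher at 858 CPM, against 309 CPM, and the secreted targets Ccn1 and Ccn2 were lower at 328 CPM and 93.8 CPM, against 859 CPM and 318 CPM. Outside the lists Cdh13 stood at 302 CPM, against 14.7 CPM, 20.5 times higher (14.7 to 28.1), and Cyp4b1, a further cytochrome P450, at 181 CPM, against 8.25 CPM. P10 AT2 cells had 1.71 CPM of Cdh13 and 19.4 CPM of Cyp4b1. Further genes among the 15 largest ratios, such as Tmem132d, Thsd4, Arhgef38, Tspan11, Acoxl and Hc, were higher still in P10 AT2 cells. Thsd4, which encodes a matrix protein of microfibrils, stood at 168 CPM, against 3.64 CPM in E18.5 AT1 cells, with 436 CPM in P10 AT2 cells and 94.7 CPM in P10 leukocytes with Sftpc below 4%.

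Gene length moved with this comparison. With measured genes cut into 5 bins of equal number by length, the longest, of 91.4 kb or more, had a median log2 ratio of 0.61, and the shortest, up to 8.95 kb, one of -0.36. Col4a3, Col4a4, Sema3e, Phactr1 and Tead1 span 135, 138, 231, 458 and 227 kb, Cdh13 spans 1041 kb, and Igfbp2, Cyp2b10, Pdgfb and Sec14l3 span 28.0, 29.0, 19.1 and 12.9 kb. How intronic reads were treated upstream is not known from the labels or headers. Against the median of genes of like length, in 20 bins, the log2 ratio was 4.21 for Igfbp2, 7.71 for Cyp2b10 and 3.48 for Cdh13. Before, these ratios were 4.27, 7.77 and 4.36. The median went from 0.21 to 0.028 for the AT1 list and from 0.34 to 0.061 for the matrix list. For the list of signals it went from 0.53 to 0.65. Col4a3, Col4a4, Sema3e, Phactr1 and Tead1 were not read singly on that scale, so whether they keep a ratio of 2 is not known here. On that scale 814 genes were higher and 709 lower.

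Genes lower at P10 than in fetal AT1 cells included keratins, fetal genes and glycolytic genes. Of the transitional list, genes raised in cells between the AT2 and AT1 states after injury, 12 of 22 were lower and 3 higher, with a median log2 ratio of -1.31, where 11.8% of all measured genes were lower and 16.8% higher. Krt19 stood at 174 CPM, against 1470 CPM, 8.44 times lower (5.76 to 12.9). The keratin genes Krt8 and Krt18 stood at 188 CPM, against 1241 CPM, and at 429 CPM, against 2069 CPM. F3, tissue factor, stood at 33.5 CPM or 5 UMIs, against 588 CPM. P10 AT2 cells had Krt8 at 272 CPM and Krt18 at 433 CPM, less than 2 times from the 22 cells. Krt19 was 2.74 times higher (1.79 to 4.02) in the 22 cells than in P10 AT2 cells, which had 63.7 CPM.

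Of the fetal and imprinted list 7 of 9 measured genes were lower, with a median of -2.04, where 11.8% of all measured genes were lower. Dlk1, a paternally expressed growth regulator, had 0 UMIs, against 167 CPM, at least 8.31-fold lower, and Meg3, the maternally expressed RNA of the same domain, stood at 228 CPM, against 543 CPM. Hmga2, a chromatin protein of fetal tissues, had 1 UMI, against 53.7 CPM, a ratio of 0.125 (0.00316 to 0.696). Of the glycolytic and hypoxia genes 9 of 15 were lower, with a median of -1.57, among them Gapdh at 335 CPM, against 992 CPM, Ldha at 114 CPM, against 349 CPM, and Pgam1 at 46.9 CPM, against 246 CPM. Ass1, a urea cycle enzyme, had 0 UMIs, against 462 CPM, at least 23.0-fold lower. Tmem213, a small membrane protein gene, stood at 33.5 CPM, against 1241 CPM, and Msln at 80.4 CPM, against 932 CPM. S100a14, the 1 lower AT1 gene, stood at 93.8 CPM or 14 UMIs, against 485 CPM, with 3.19 CPM in P10 AT2 cells. Of the 733 lower genes 78, or 10.6%, had an E18.5 level at least 2 times that of E18.5 leukocytes with Sftpc below 1%. For most of the lower genes the fetal AT1 level was thus less than 2 times that of fetal leukocytes.

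Surfactant and AT2 genes were higher at P10, where the fetal cells had been limited to Sftpc below 2% and these to below 8%. Of 9 measured surfactant genes without Sftpc 7 were higher, with a median log2 ratio of 2.65. Of 25 AT2 genes 14 were higher, with a median of 1.12, where 16.8% of all measured genes were higher. Over the 19 of the 22 cells with Sftpc below 5% the medians were 1.70 and 0.65, the second no longer at a ratio of 2. Sftpb stood at 1904 CPM, against 197 CPM, Lamp3 at 261 CPM, against 41.8 CPM, and Lcn2, the iron-binding protein lipocalin, at 1709 CPM, against 43.0 CPM. In P10 leukocytes with Sftpc below 4% the same genes stood at 1112, 140 and 1003 CPM, less than 2 times below the AT1-rich, low-Sftpc level, and over all P10 leukocytes at 3690, 474 and 2042 CPM, above it. With no limit on Sftpc at E18.5 the medians of the surfactant and AT2 lists were -0.026 and -0.094. That setting let in fetal cells with Sftpc of 8% or more, while the P10 cells stayed below 8%. The direction thus changed with the fetal cells chosen, and groups matched in Sftpc were not compared. MHC class II genes, which AT2 cells and leukocytes carry after birth, were higher in 3 of 3 measured. Cd74, the invariant chain, stood at 657 CPM, against 15.9 CPM, with 1236 CPM in P10 AT2 cells and 2521 CPM in P10 leukocytes with Sftpc below 4%.

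**Figure D5:**
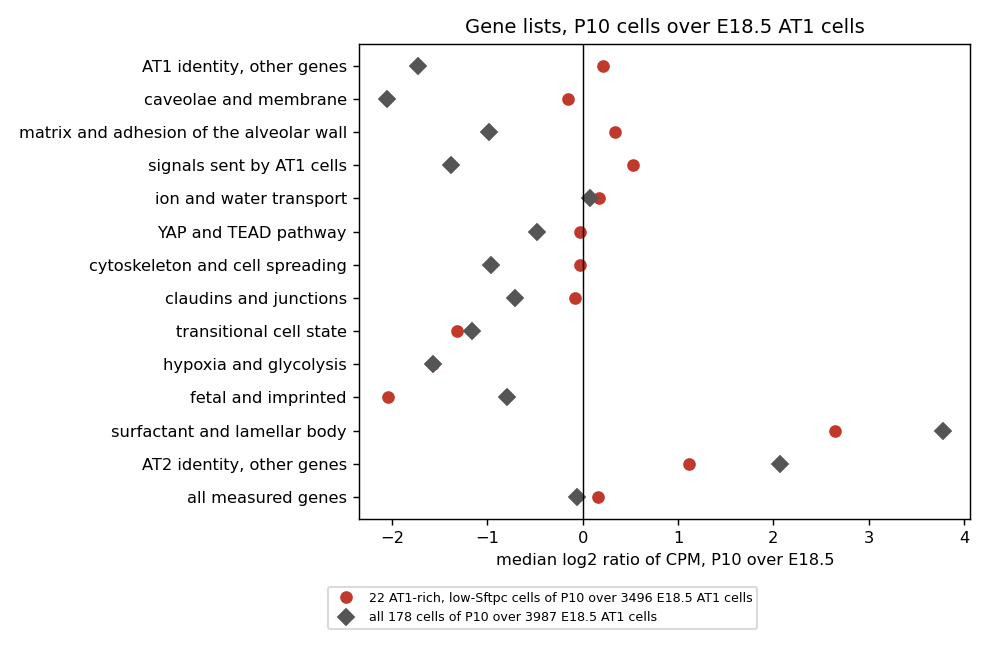
Median log2 ratio of CPM for 13 gene lists and for all measured genes, P10 over E18.5, for the 22 AT1-rich, low-Sftpc cells over 3496 E18.5 AT1 cells (red) and for all 178 cells over 3987 E18.5 AT1 cells (grey). The AT1 list lies at 0.21 for the 22 cells and at -1.73 for the 178 cells, and the marks for hypoxia and glycolysis coincide at -1.57.

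Over all 178 cells the same comparison gave another picture. Of 33 measured AT1 genes 25 were lower than in all 3987 E18.5 AT1 cells and 1 higher, with a median log2 ratio of -1.73, where 14.5% of 6472 genes were lower and 14.5% higher. Caveolae genes were lower in 9 of 10, and surfactant genes higher in 8 of 9 with a median of 3.78. With the 22 AT1-rich, low-Sftpc cells in place of the 178, and the same 3987 cells, the medians were 0.48 for the AT1 list and 0.09 for caveolae genes. Tmem132d, Acoxl, Galnt13, Cd74 and H2-Aa led the higher genes and Dlk1, Tmem213, S100a14, Ass1 and Cldn10 the lower ones. Tmem132d stood at 723 CPM over the 178 cells, against 4.41 CPM in E18.5 AT1 cells, and at 979 CPM in P10 AT2 cells. It was lowest in the AT1-rich, low-Sftpc class among the 4 classes, at 282 CPM, with 147 CPM in P10 leukocytes with Sftpc below 4% and 540 CPM in all P10 leukocytes. Scgb3a2 and Tmem212, an airway secretory and a ciliated-cell gene, were lower over the 178 cells only through the other-lineage cells of E18.5, without which their log2 ratios were 0.83 and 0.22.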

How the data were processed

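Droplet single-cell libraries of 1 P10 and 1 E18.5 mouse lung sample were read from the deposited filtered matrices, which hold raw UMI counts per gene and cell. Per the file headers, the authors made these counts with Cell Ranger 7.0.1. The submitters' processing notes also name mm10 and Seurat 4.0.0, without a role for Seurat. The treatment of intronic reads was not given in the sources used here. A v2 kit is named in the labels.

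Cells were kept with 500 genes or more, 1000 UMIs or more and a mitochondrial share of 20% or less, and no doublet caller was run, so doublets remain. For each group the cells' UMIs were added up per gene and scaled to CPM. Genes averaging 20 CPM or more in the 2 sums counted as measured, and those that differed by 2 times or more as higher or lower. With 1 library per group no test across cells was made. Intervals are exact Poisson for sums, exact binomial (Clopper-Pearson) for shares and exact conditional binomial for ratios, all at 95% and for counting error only. A count of 0 was set at a floor of 3 UMIs over the group. Cells were thinned to 3000 UMIs for shares, which left out shallower cells (5 of 178 P10 cells and 108 of 5858 P10 AT2 cells). Leukocytes are cells with at least 2 Ptprc UMIs.

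The members, classes and gene lists were chosen with earlier results of these data known, and the cut-offs of the classes, the marker limits for other-lineage cells and the leukocyte groups after the cells had been seen. Genes named for size were the 15 highest and the 15 lowest ratios of each comparison among genes averaging 50 CPM or more, leaving out the rule genes, Ptprc, Sftpc, mitochondrial, ribosomal, haemoglobin, Xist, Y-linked and unnamed genes. Of 383 list genes 381 were matched by symbol. Positions are from GENCODE vM21 and promoters from RefSeq GRCm38.p6. Python 3.11.15, numpy 2.4.6, scipy 1.17.1, pandas 2.3.3 and matplotlib 3.10.9 were used, and the comparison was tested on simulated data. Alternatives were other limits of the rule, other P10 and E18.5 cells, thinning and other filters on low values.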

Additional observations from a re-analysis of the deposited data

How the results depend on the processing

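The number of P10 cells that met the rule, 178, depended on its limits: it was 369 with at least 3 UMIs of the 5 genes, 111 with at least 8, 91 with at least 10, 344 with at least 2 genes, 78 with at least 4 genes and 60 with a rule-gene share of at least 0.1%. Over these cells and P10 AT2 cells, 303 genes were higher and 5 lower. The counts higher and lower were 567 and 19 with at least 10 UMIs, 1097 and 308 with Sftpc below 8%, 1405 and 594 with Sftpc below 2%, 1242 and 627 for AT1-rich, low-Sftpc cells, and 509 and 150 with no UMI of 12 defining genes of other types. They were 499 and 11 at 10 CPM, 118 and 3 at 50 CPM, 3423 and 544 with no filter beyond 3 counts, and 835 and 168 in cells with Y-linked and no Xist UMIs. Without other-lineage cells 90 genes were higher, after thinning 29 were lower, and against AT2 cells nearest in UMIs 19 were lower. The surfactant list's median log2 ratio of -0.41 was -1.65 with Sftpc below 8%, -2.45 below 2% and -1.34 for AT1-rich, low-Sftpc cells.

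Some genes changed direction in this comparison. Without other-lineage cells the log2 ratios were -0.30 for Igfbp5, -0.86 for Cyyr1, -1.01 for Cd93, -0.067 for Dach1, -0.45 for Ldb2 and -0.12 for Ptprb. With no UMI of the 12 defining genes they were -0.33 for Tmem100, -0.98 for Ptprb and -0.54 for Pde3a, and with Y-linked and no Xist UMIs -0.18 for Igfbp5. Of the 178 cells over E18.5 AT1 cells, the medians of -1.73, -2.05 and -1.38 for AT1, caveolae and signal genes were 0.48, 0.088 and 0.71 with AT1-rich, low-Sftpc cells, and the AT1 median was -0.67 with no defining gene. There 937 genes were higher and 937 lower, against 513 and 585 at 50 CPM and 3921 and 2737 with no filter. Scgb3a2 and Tmem212 turned to 0.83 and 0.22 without other-lineage cells at E18.5.

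For AT1-rich, low-Sftpc cells over P10 AT2 cells, 1242 genes were higher and 627 lower. Higher genes numbered 1873 after thinning, 624 at 50 CPM and 2997 with no filter, and lower ones 963 at 10 CPM, 300 at 50 CPM and 963 with no filter. Over E18.5 AT1 cells, 1048 were higher and 733 lower. Higher genes numbered 1597 with no defining gene, 1684 after thinning, 484 at 50 CPM and 2901 with no filter, and lower ones 379 at 50 CPM. With no limit on Sftpc at E18.5 the surfactant and AT2 medians of 2.65 and 1.12 were -0.026 and -0.094. With the 19 cells of Sftpc below 5%, a limit chosen after seeing the data, the AT2 median was 0.65, no count of calls moved by more than 1.5 times and no named gene lost its call. The cause of these changes was not tested, beyond the fewer genes or cells each setting leaves. A further 257 values of counts and medians under these and the other alternatives stayed within 1.5 times the count or on the same side of a ratio of 2, as did 3082 values of single genes and further lists. Of the other values of genes and further lists, 91 passed a ratio of 2 under an alternative alone, 58 fell short of it under an alternative and 15 changed direction.

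No paired analysis was possible because each time point is 1 library. Leaving out a replicate was not possible either. The alternative of Y-linked and no Xist UMIs was not run for the AT1-rich, low-Sftpc cells, since 1 cell qualified. With 149176 UMIs in those 22 cells, 1 UMI is worth 6.70 CPM, so genes of a few UMIs carry wide counting intervals.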

Other observations

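Some genes outside the AT1 lists also differed in the 22 AT1-rich, low-Sftpc cells. Csf1r, the receptor for colony-stimulating factor 1 and known from macrophages, was chosen after its values were seen. It had 12 UMIs in 36.4% of the 22 cells, 80.4 CPM, and 25.1 CPM in AT1-rich, high-Sftpc cells, against 9.28 CPM in P10 AT2 cells, 8.66 times higher (4.45 to 15.2). E18.5 AT1 cells without other-lineage cells had 4.52 CPM and P10 leukocytes with Sftpc below 4% had 77.0 CPM. Of the 12 genes of the myeloid list 4, Adgre1, Itgam, Marco and Mrc1, were at 0 UMIs in the 22 cells, and Cd68 had 1 UMI. The rest of the list also had UMIs there. Cells with a Ptprc UMI or at least 5 myeloid markers had been left out of this class. Cdkn2b, an inhibitor of the cell cycle, stood at 235 CPM in the 22 cells and 47.9 CPM in AT1-rich, high-Sftpc cells, against 13 CPM in P10 AT2 cells and 335 CPM in E18.5 AT1 cells. Tppp3, a tubulin-binding protein known from ciliated cells, stood at 101 CPM in the 22 cells, against 9.01 CPM in P10 AT2 cells. Of the 8 listed ciliated markers 4 were at 0 UMIs in the 22 cells, the factor Foxj1 among them, and the others had UMIs. Cells with at least 5 ciliated markers had also been left out of this class. The list, Tppp3 included, summed to 127 CPM there, against 32.3 CPM in P10 AT2 cells.

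Immediate early genes, which respond within minutes to many stimuli including tissue dissociation, were lower in the 22 cells than in P10 AT2 cells for 5 of 11 measured and higher for 1, where 10.1% of all measured genes were lower and 20.1% higher. Fosb stood at 1032 CPM, against 2175 CPM in P10 AT2 cells, and 177 CPM in E18.5 AT1 cells. Jun stood at 1193 CPM, against 2593 CPM, and Atf3 at 992 CPM, against 2168 CPM. Ier3 was the higher gene, at 335 CPM, against 122 CPM. Il33, an alarmin of AT2 cells, had 4 UMIs or 26.8 CPM, against 147 CPM. Of the dividing-cell genes Mki67 had 1 UMI and Top2a, Cdk1 and Ccnb1 had 0 UMIs in the 22 cells. The whole cell cycle list of 14 genes, 9 of them at 0 UMIs there, summed to 288 CPM in the 22 cells. Its sum was 389 CPM in P10 AT2 cells and 309 CPM in E18.5 AT1 cells without other-lineage cells.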
